A study of Mus musculus with 2 samples.

Results

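Interferon gamma (IFN-γ) receptor signaling was followed here through 6 genes, *Ifngr1*, *Ifngr2*, *Jak1*, *Jak2*, *Irf1*, and *Socs1*. They were listed by name and not by a rule on their values, but with earlier results of these data known. All 6 were found among the 20299 genes of the series, and their molecules were summed by cluster and library to ask which kidney cells carried the transcripts needed to sense IFN-γ. The cytokine binds IFNGR1, the ligand-binding chain of its receptor, and IFNGR2 joins the complex as the accessory chain. JAK1, a tyrosine kinase held by IFNGR1, and JAK2, held by IFNGR2, then pass the signal to transcription factors that bind GAS elements in target promoters. *Irf1* encodes a transcription factor that is an early target of this pathway, and *Socs1* encodes an induced inhibitor of the JAK kinases. Macrophages are classical responders to IFN-γ, whereas NK cells and effector T cells are its main sources.

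Kidney cells of C57BL/6 mice with nephrotoxic nephritis (NTN) were profiled by droplet-based scRNA sequencing. Each genotype, WT and Vsir-/-, had 1 library, so no comparison between genotypes has a replicate check and none was tested. Vsir encodes VISTA, an inhibitory immune checkpoint protein, and the Vsir-/- mice, derived from stored sperm of a repository, lack the gene in every cell type. Mice of both groups were 8 weeks old and were given 200 μg of sheep IgG in Freund's complete adjuvant and, 4 days later, 2 μl of sheep nephrotoxic serum per g of body weight according to the sample labels, although the methods of the study give another serum dose. Kidneys were digested with liberase, and the labels call the WT library sorted CD45+ cells but the Vsir-/- library all kinds of kidney cells, although the methods of the study describe a CD45+ sort without exception. The number of mice behind each library is not stated in the labels or the methods.

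The WT library held 5470 cells and 32799550 unique molecular identifiers (UMIs, each standing for 1 captured mRNA molecule), and the Vsir-/- library held 1844 cells and 18601189 UMIs. The medians were 4726.5 and 6673 UMIs per cell, and 5 cell barcodes occurred in both libraries. Vsir itself had 130.4 CPM (UMIs of a gene per 1e+06 UMIs of the same cells) in the WT library and 0.430 CPM in the Vsir-/- library. *Ptprc*, the CD45 gene, was detected in 94.2% of the WT and 73.6% of the Vsir-/- barcodes. A list of 16 kidney tubule genes was summed in the 10 clusters with at least 50 cells in each library. It ran from 14.5 CPM in neutrophils to 302 CPM in NK cells of the WT library, with between 3 and 6 of the 16 genes detected, and from 1434 CPM in M2-like R2 cells to 14262 CPM in the Vsir-/- non–EM-like CD4+ cluster, with all 16 detected in each of them. Differences between the libraries therefore run alongside RNA of nonimmune kidney cells, and their part in the results was not tested. The clusters are the authors' own, named after T cells of an effector memory–like (EM-like) or non–EM-like state, R1 and R2 macrophages, and other leukocytes. Markers were checked by cluster, and most cells of the Vsir-/- non–EM-like CD4+ and proliferating clusters lacked T cell transcripts. The B cell genes *Cd79a*, *Cd79b*, and *Ms4a1* summed to 5401 CPM in WT B cells and 16.8 CPM in WT NK cells. WT NKT cells, other R2, and R1 macrophages also held 2367, 1125, and 1075 CPM of these genes. A list of 4 NK genes summed to 4102 CPM in WT NK cells and 28.4 CPM in WT B cells. It also reached 2038 CPM in EM-like CD8+, 1832 CPM in NKT, and 801 CPM in EM-like CD4+ cells of that library. WT NK cells held 1120 CPM of 6 T cell receptor and CD3 genes, so these markers do not fully separate NK from EM-like clusters. Intervals are exact, at the 95% level, and cover counting error only.

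The promoters of the 2 induced members are shown because matches to the motifs named below were found in them. Sequences are those of RefSeq on GRCm38.p6, from 250 bases before to 50 bases after the start of the gene, read 5′ to 3′ on the strand of the gene. Both strands were searched for TTCNNNGAA, the GAS core, and for GAAANNGAAA, an IRF-type motif, and matches are in capitals.
Irf1: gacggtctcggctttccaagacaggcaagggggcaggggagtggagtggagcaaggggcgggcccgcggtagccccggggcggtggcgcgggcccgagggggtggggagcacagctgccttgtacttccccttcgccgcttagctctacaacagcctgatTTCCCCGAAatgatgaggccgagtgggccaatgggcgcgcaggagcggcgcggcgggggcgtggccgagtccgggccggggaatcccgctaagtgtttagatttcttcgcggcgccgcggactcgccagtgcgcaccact
Socs1: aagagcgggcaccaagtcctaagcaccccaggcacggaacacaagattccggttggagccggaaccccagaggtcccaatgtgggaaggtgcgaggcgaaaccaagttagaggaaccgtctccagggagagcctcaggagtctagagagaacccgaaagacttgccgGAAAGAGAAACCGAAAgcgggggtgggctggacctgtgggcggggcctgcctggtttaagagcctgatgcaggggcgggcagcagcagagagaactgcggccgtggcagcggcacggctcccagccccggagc
The *Irf1* window, chr11:53769764-53770063 on the plus strand, held 1 GAS match, TTCCCCGAA, starting 90 bases before the start of the gene. The *Socs1* window, chr16:10785487-10785786 on the minus strand, held 2 overlapping IRF-type matches, GAAAGAGAAA and GAAACCGAAA, at 83 and 77 bases before the start. Of 32851 mouse promoter windows of this length, 8.30% held a GAS match and 3.44% an IRF-type match. The windows of *Ifngr1*, *Ifngr2*, *Jak1*, and *Jak2*, and a second window of *Irf1*, held neither. The motifs were chosen after the counts had been seen, and a match is a description of the letters and not of binding.

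*Ifngr1*, the ligand-binding chain, was found in every cluster of the WT library. Among the 13 WT clusters with at least 50 cells, its level was highest in NK cells, at 587 CPM (2206 UMIs, interval 563 to 612), and lowest in B cells, at 81.3 CPM (283 UMIs, interval 72.1 to 91.3). This was a 7.22-fold range (interval 6.38 to 8.20). The next clusters in order were other R2 macrophages at 482 CPM, the EM-like CD8+ cluster at 479.8 CPM, and its CD4+ counterpart at 432 CPM, and steps between these 3 were within counting error. The steps from NK cells to this group and from it to the next cluster were larger than counting error. M2-like R2 macrophages followed at 383 CPM, NKT cells at 369 CPM, R1 macrophages at 285 CPM, and proliferating cells at 247 CPM. The low end was formed by non–EM-like CD8+ T cells (210.3 CPM), neutrophils (173 CPM), non–EM-like CD4+ T cells (129 CPM), and ILC2 (129 CPM).

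EM-like T cells thus held more *Ifngr1* than non–EM-like T cells of the same lineage. The log2 ratio of CPM was 1.74 (interval 1.59 to 1.88) for CD4+ and 1.19 (interval 1.02 to 1.36) for CD8+ T cells in the WT library. The Vsir-/- library gave 2.35 (interval 2.17 to 2.54) and 1.05 (interval 0.56 to 1.53). The denominator of the CD4+ value holds cells without T cell transcripts, and *Ifngr1* stood at 129.6 CPM in those with one, against 79.8 CPM in the whole cluster. The Vsir-/- order again began with NK cells (513 CPM), other R2 macrophages (476 CPM), EM-like CD4+ T cells (408 CPM), and M2-like R2 macrophages (316 CPM). Its end was formed by B cells (99.1 CPM) and the non–EM-like CD4+ cluster (79.8 CPM). EM-like CD8+ T cells of this library, with 28 cells, had 398 CPM (66 UMIs, interval 307 to 506). γδ T cells, with fewer than 50 cells in either library, had 634 CPM (178 UMIs, interval 544 to 735) in the WT and 293 CPM (52 UMIs, interval 219 to 385) in the Vsir-/- library.

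*Ifngr2*, the accessory chain without which the receptor does not signal, had a different order. It was highest in myeloid cells of the WT library, with 155 CPM (681 UMIs, interval 144 to 167) in M2-like R2 macrophages, 129.5 CPM in R1 macrophages, 110.1 CPM in other R2 macrophages, and 110.0 CPM in neutrophils. No neighbours among these 4 clusters were separated beyond counting error, but clusters further apart in the order were. The log2 ratio over M2-like R2 macrophages was −0.49 (interval −0.77 to −0.23) for other R2 macrophages and −0.49 (interval −0.70 to −0.29) for neutrophils. B cells (57.4 CPM) and non–EM-like CD4+ T cells (50.3 CPM) came next, followed by ILC2, non–EM-like CD8+ T cells, and NKT cells at 27.3, 26.7, and 23.8 CPM.

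At the low end of the WT order stood the EM-like, proliferating, and NK clusters. EM-like CD4+ T cells had 6.07 CPM (17 UMIs, interval 3.53 to 9.71) in 489 cells and proliferating cells had 5.97 CPM (12 UMIs, interval 3.08 to 10.4) in 118 cells. NK cells had 2.13 CPM (8 UMIs, interval 0.919 to 4.19) in 594 cells, and EM-like CD8+ T cells had 1 UMI in 197 cells, or 1.21 CPM (interval 0.0308 to 6.77). The level in M2-like R2 macrophages was 128 times that of EM-like CD8+ T cells, with an interval of 22.8 to 5048 because the denominator is a single UMI. Relative to non–EM-like cells, the log2 ratio of EM-like cells was −3.01 (interval −3.86 to −2.34) for CD4+ and −3.88 (interval −9.77 to −1.95) for CD8+ T cells, and that of NK cells relative to non–EM-like CD8+ T cells was −3.57 (interval −4.89 to −2.63). The 2 receptor chains therefore differed in opposite directions between EM-like and non–EM-like cells of the WT library.

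In the Vsir-/- library the upper part of the *Ifngr2* order was again formed by R1 (142 CPM), M2-like R2 (118 CPM), and other R2 macrophages (118 CPM). NK cells had 9.86 CPM (5 UMIs) in 67 cells, and EM-like CD4+ T cells had 12.7 CPM (20 UMIs, interval 7.74 to 19.6) in 244 cells. None was found in 28 EM-like CD8+ T cells (0 UMIs), which allows up to 18.1 CPM at 3 counts. Non–EM-like CD8+ T cells of this library had 9 UMIs, or 20.4 CPM (interval 9.31 to 38.6). The interval of the log2 ratio between the 2 clusters reached up to 0.43, so they could not be told apart at this depth. The log2 ratio of EM-like over non–EM-like CD4+ T cells was −1.82 (interval −2.59 to −1.19), and the denominator holds cells other than T cells. That of NK cells over non–EM-like CD8+ T cells was −0.99 (interval −2.97 to 0.69), and its direction was not detectable at this depth.

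**Figure D1:**
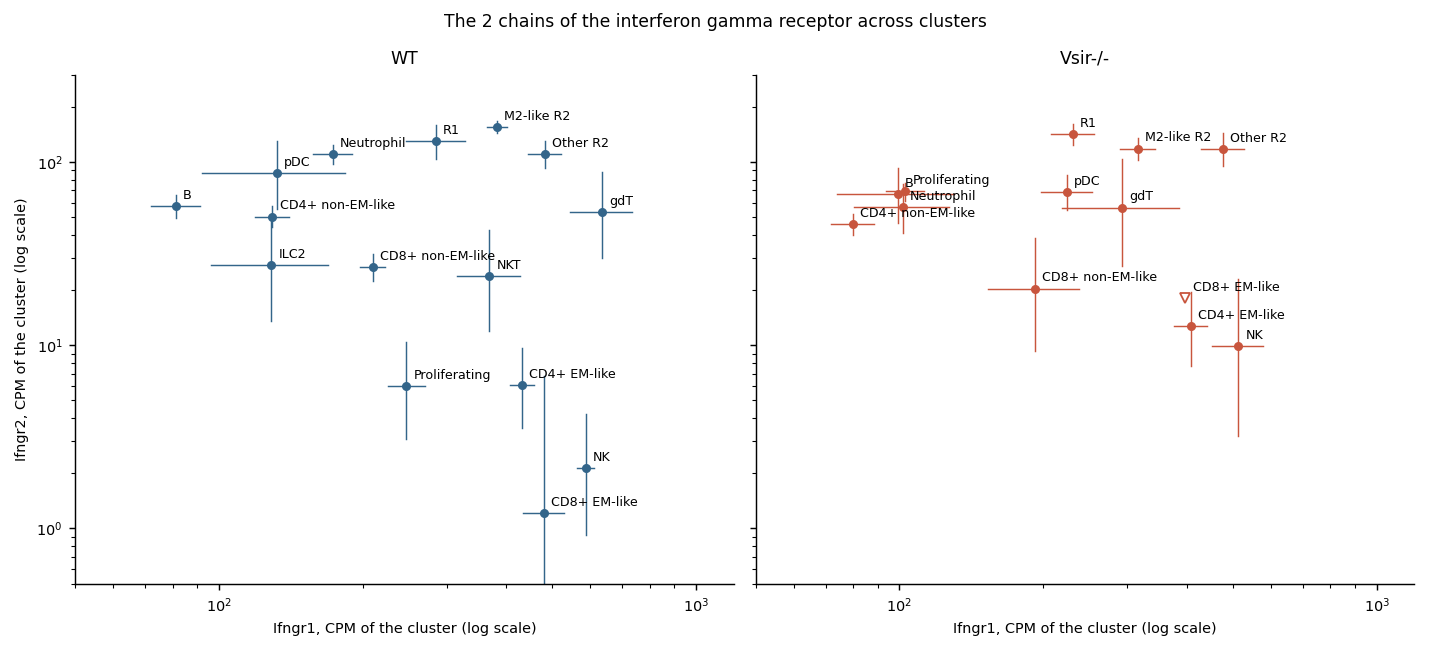
Level of *Ifngr1* (x axis) and *Ifngr2* (y axis) in CPM, both on log scales, for clusters with at least 20 cells in the WT (left) and Vsir-/- (right) library. Basophils are not drawn. Points are clusters, bars are exact intervals at the 95% level (cut at the lower edge of the axis for WT CD8+ EM-like cells), and the open triangle marks the level that 3 counts would give where no UMI was found. WT NK, EM-like, and proliferating cells lie at 247 CPM of *Ifngr1* or more but below 7 CPM of *Ifngr2*, and macrophages lie high on both axes.

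The balance between the chains was expressed as *Ifngr2* UMIs per 100 *Ifngr1* UMIs of the same cells, which compares clusters for the same pair of genes and does not compare the abundance of the chains. In the WT library it was 70.7 (interval 58.7 to 85.0) in B cells, 63.5 (interval 54.4 to 74.1) in neutrophils, 45.5 (interval 35.0 to 58.6) in R1 macrophages, and 40.5 (interval 37.0 to 44.3) in M2-like R2 macrophages. Non–EM-like CD4+ T cells had 38.8 (interval 33.1 to 45.4) and non–EM-like CD8+ T cells 12.7 (interval 10.5 to 15.2). It was 1.40 (interval 0.816 to 2.26) in EM-like CD4+ T cells, 2.41 (interval 1.24 to 4.26) in proliferating cells, 0.363 (interval 0.156 to 0.716) in NK cells, and 0.253 (interval 0.00639 to 1.42) in EM-like CD8+ T cells. The intervals of these last 4 clusters do not overlap those of the B cell, myeloid, and non–EM-like T cell clusters. In the Vsir-/- library the value was 1.92 (interval 0.619 to 4.55) in NK cells and 3.11 (interval 1.89 to 4.84) in EM-like CD4+ T cells, against 37.4 (interval 31.6 to 44.2) in M2-like R2 and 61.6 (interval 52.0 to 72.9) in R1 macrophages. The proliferating cluster was the exception, with 67.2 (interval 57.9 to 77.8) in the Vsir-/- library, where 307 *Ifngr2* UMIs stood beside 457 *Ifngr1* UMIs.

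**Figure D2:**
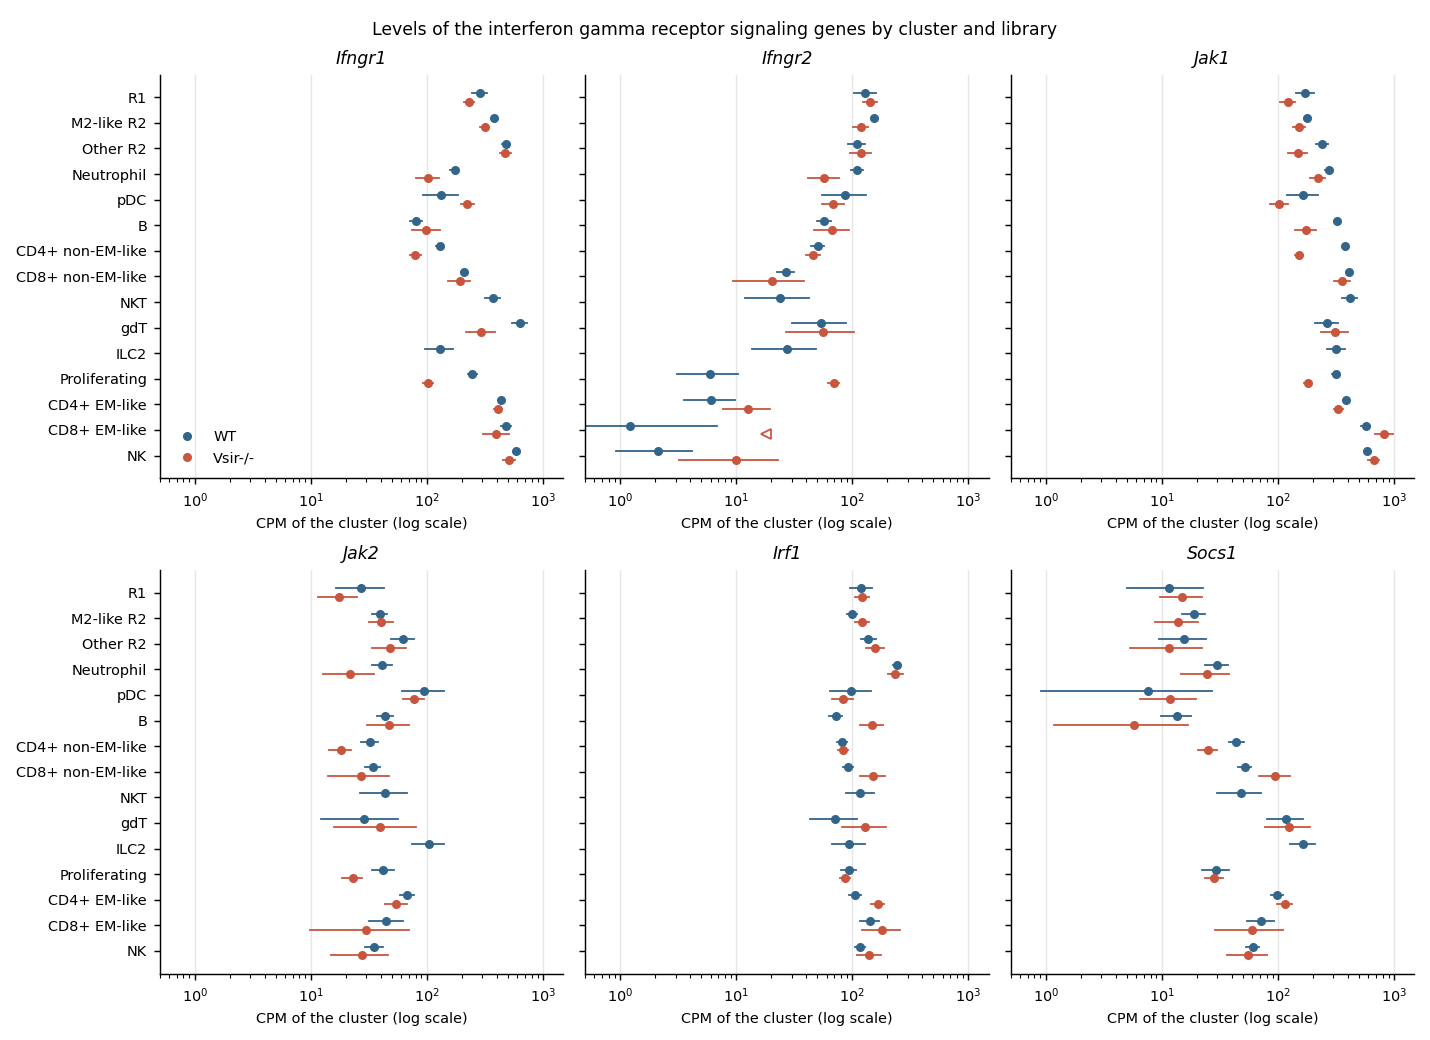
Level of each of the 6 genes in CPM (x axis, log scale) by cluster, for clusters with at least 20 cells in the WT (blue) and Vsir-/- (red) library. Basophils are not drawn. Points are clusters, bars are exact intervals at the 95% level cut at the left edge of the axis, and the open triangle is the level of 3 counts where no UMI was found. *Ifngr2* is highest in macrophages at the top and low in EM-like and NK cells at the bottom, without a steady fall in between. WT *Jak1* and *Socs1* are low in macrophages and plasmacytoid dendritic cells, and *Irf1* stays within 71.3 and 243 CPM in the WT library.

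A single cell can assemble the receptor only from both chains, so cells with at least 1 UMI of each were counted. In the WT library 730 of 5470 cells, or 13.3% (interval 12.5 to 14.3%), held both, and in the Vsir-/- library 481 of 1844 cells, or 26.1% (interval 24.1 to 28.2%). M2-like R2 macrophages had the highest share in both libraries, 57.5% (interval 52.8 to 62.0%) and 58.3% (interval 50.5 to 65.9%). Other R2 macrophages had 41.0% and 40.5%, and R1 macrophages 35.3% and 46.8%. In the WT library the share was 10.2% (interval 7.97 to 12.7%) in non–EM-like CD8+ and 9.72% (interval 7.86 to 11.9%) in non–EM-like CD4+ T cells, 2.25% (interval 1.13 to 3.99%) in EM-like CD4+ T cells, and 1.01% (interval 0.372 to 2.19%) in NK cells. It was 0 of 197 EM-like CD8+ T cells, whose exact interval ends at 1.86%. B cells had 4.75%, with *Ifngr1* in 23.6% and *Ifngr2* in 17.6% of cells.

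These shares move with depth. The median M2-like R2 cell of the WT library held 9699 UMIs, the median NK cell 5491.5, and the median B cell 3426. With every cell thinned to 1000 UMIs, which left out 167 WT and 78 Vsir-/- cells, 0.981% (interval 0.733 to 1.28%) of WT and 1.19% (interval 0.738 to 1.81%) of Vsir-/- cells held both chains, and the difference between the libraries was no longer detectable. At this depth *Ifngr1* was found in 44.0% of WT NK cells, 35.9% of EM-like CD4+, 35.1% of EM-like CD8+, and 30.8% of M2-like R2 cells. *Ifngr2* was found in 0.172%, 0.209%, 0%, and 13.2% of the same cells. No cluster is known to lack *Ifngr2*, so there was no reference for the share that free RNA in the droplets could give, and the low shares in WT NK and EM-like T cells cannot be told apart from such RNA. Over all WT macrophages the thinned share with both chains was 3.87% (interval 2.56 to 5.58%), and over all WT T cells it was 0.450% (interval 0.216 to 0.826%). Both are close to the product of the shares of the single chains, 4.03% and 0.456%.

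**Figure D3:**
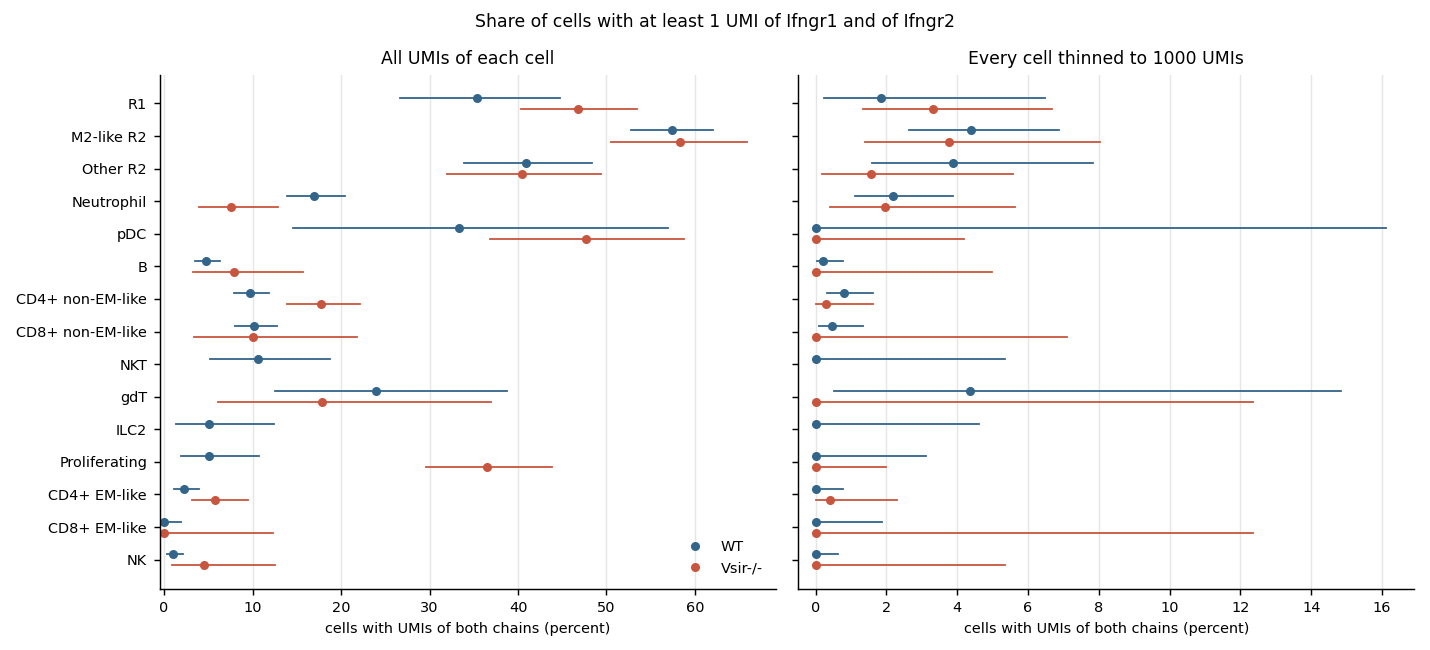
Percent of cells with at least 1 UMI of *Ifngr1* and of *Ifngr2* (x axis) by cluster, with all UMIs (left) and with every cell thinned to 1000 UMIs (right, a narrower axis), for the WT (blue) and Vsir-/- (red) library and clusters with at least 20 cells. Basophils are not drawn. Points are shares and bars are exact Clopper-Pearson intervals at the 95% level. Macrophages reach 57.5% and 58.3% without thinning but only between 1.57% and 4.40% after it, and EM-like CD8+ T cells are at 0% in both panels.

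*Jak1*, the kinase of the IFNGR1 chain and of many cytokine receptors, was present in all clusters with at least 50 cells, and its highest WT levels were in the 2 clusters with the lowest *Ifngr2*. In the WT library it reached 584 CPM (2194 UMIs, interval 559.6 to 609) in NK cells, and EM-like CD8+ T cells followed at 573 CPM. These 2 clusters were not separated from each other. The other 3 T cell clusters lay between 379 and 406 CPM, B cells had 322 CPM, and neutrophils 275 CPM. Macrophages were lowest among clusters of at least 50 cells, with 239.6 CPM in other R2, 179 CPM in M2-like R2, and 171 CPM (119 UMIs, interval 142 to 205) in R1 cells. Of the Vsir-/- clusters with at least 50 cells, NK cells were highest with 671 CPM (340 UMIs, interval 601 to 746), and the 28 EM-like CD8+ T cells had 825 CPM (137 UMIs, interval 693 to 975). R1 macrophages (121 CPM) and plasmacytoid dendritic cells (102 CPM) were lowest in this library. Over the clusters with at least 50 cells, Pearson's r between log2(CPM + 1) of *Jak1* and *Ifngr2* was −0.84 in the 13 WT and −0.89 in the 11 Vsir-/- clusters, which share a library and its depth and include the mixed clusters.

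*Jak2*, the kinase of the IFNGR2 chain, did not follow *Ifngr2*, with r of −0.14 and −0.03 over the same clusters. Its WT level was highest in ILC2, at 104 CPM (42 UMIs, interval 75.0 to 141), followed by EM-like CD4+ T cells (67.8 CPM) and other R2 macrophages (62.4 CPM). Of the 12 neighbouring pairs in the WT order, only ILC2 and EM-like CD4+ T cells were separated beyond counting error. Some clusters further apart were, as EM-like over non–EM-like CD4+ T cells had a log2 ratio of 1.08 (interval 0.76 to 1.40). R1 macrophages were lowest in both libraries, with 27.3 CPM (19 UMIs, interval 16.5 to 42.7) and 17.5 CPM (28 UMIs, interval 11.6 to 25.3). Among Vsir-/- clusters with at least 50 cells, plasmacytoid dendritic cells were highest, at 77.8 CPM (92 UMIs, interval 62.7 to 95.4). Basophils of the WT library had 254 CPM, but from 37 UMIs in 25 cells.

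*Irf1*, the target that encodes a transcription factor, had a narrower range over clusters than *Ifngr2*. Among clusters with at least 50 cells, neutrophils were highest in both libraries. They had 243 CPM (602 UMIs, interval 224 to 263) in the WT and 234 CPM (182 UMIs, interval 201 to 271) in the Vsir-/- library. WT EM-like CD8+ T cells, which held a single *Ifngr2* UMI, had 141 CPM (116 UMIs, interval 116 to 169), and NK cells had 117 CPM (438 UMIs, interval 106 to 128). Other R2 macrophages had 137 CPM, R1 macrophages 119 CPM, and M2-like R2 macrophages 99.0 CPM. The lowest WT level among clusters with at least 50 cells was in B cells, 71.8 CPM (250 UMIs, interval 63.2 to 81.3). Apart from the step between neutrophils and the next cluster, no neighbours in the WT order were separated beyond counting error. Some clusters further apart were, as EM-like over non–EM-like CD8+ T cells had a log2 ratio of 0.62 (interval 0.31 to 0.91). *Irf1* responds to other cytokines as well as to IFN-γ, so its level is not a reading of this receptor alone.

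*Socs1*, the inhibitor, had its highest WT levels, among clusters with at least 50 cells, in ILC2 and EM-like T cells. Its WT level was 164 CPM (66 UMIs, interval 126 to 208) in ILC2 and 97.8 CPM (274 UMIs, interval 86.5 to 110.0) in EM-like CD4+ T cells. The EM-like CD8+ cluster followed at 71.7 CPM. NK cells had 60.7 CPM, and non–EM-like CD8+ and CD4+ T cells 51.6 and 44.0 CPM. Macrophages and B cells were low, with 18.9 CPM in M2-like R2, 15.6 CPM in other R2, 11.5 CPM (8 UMIs, interval 4.97 to 22.7) in R1, and 13.5 CPM in B cells. Among Vsir-/- clusters with at least 50 cells, EM-like CD4+ T cells were highest, at 114 CPM (180 UMIs, interval 98.1 to 132), and B cells lowest, with 3 UMIs. ILC2 of this library, with 19 cells, had 61.9 CPM (9 UMIs). γδ T cells, with fewer than 50 cells in either library, had 118 CPM (33 UMIs) in the WT and 124 CPM (22 UMIs) in the Vsir-/- library. EM-like over non–EM-like CD4+ T cells gave a log2 ratio of 1.15 (interval 0.88 to 1.42) in the WT library. For CD8+ T cells it was 0.48 (interval 0.04 to 0.89) in the WT and −0.60 (interval −1.82 to 0.36) in the Vsir-/- library, where EM-like cells had 10 and non–EM-like cells 42 UMIs. *Socs1* and *Ifngr2* had r of −0.64 and −0.83 over the 13 and 11 clusters.

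The 3 macrophage clusters and the 4 T cell clusters were then summed within each library, as a description, since the clusters were built from the same cells. Of the 671 Vsir-/- cells in the T cell sum, 233 had no T cell receptor or CD3 transcript, and tubule genes stood at 17059.8 CPM in them. In the WT library *Ifngr2* had 143 CPM in macrophages and 28.7 CPM in T cells, a log2 ratio of 2.32 (interval 2.14 to 2.50), and in the Vsir-/- library it had 128 and 35.2 CPM, a log2 ratio of 1.86 (interval 1.63 to 2.08). *Ifngr1* was also higher in macrophages but by less, with 0.67 (interval 0.59 to 0.74) and 0.87 (interval 0.75 to 0.99), and the Vsir-/- value was −0.056 after the profile of Vsir-/- cells without T cell transcripts, an estimate of RNA from nonimmune kidney cells, was subtracted. With T cell clusters limited to cells with such a transcript and macrophage clusters to cells without one, it was 0.16. *Socs1* was lower in macrophages, with log2 ratios of −1.78 (interval −2.09 to −1.50) and −1.88 (interval −2.32 to −1.48), and so was *Jak1*, with −1.08 (interval −1.17 to −0.99) and −0.68 (interval −0.82 to −0.54). *Jak2* and *Irf1* lay between 0.04 and 0.26. With the cells limited by T cell transcript, the Vsir-/- ratios were 2.06 for *Ifngr2*, −1.28 for *Jak1*, −2.72 for *Socs1*, and, with the sign turned, −0.15 for *Jak2* and −0.34 for *Irf1*. Of the 6 members, 3 were past 2-fold in the WT and 2 in the Vsir-/- library, where 35.4% and 42.4% of all genes were.

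Other genes of the pathway, a list of 28, were read in the same way. In each library 11 of them were past 2-fold higher in macrophages, 2 lower, and 15 neither. Of all genes, 35.4% in the WT and 42.4% in the Vsir-/- library were past 2-fold in either direction. Of the 12 targets, 6 were higher in each library, but not the same 6. *Cxcl10* (2.33 and 0.58) and *Irgm1* (1.29 and −0.37) were past 2-fold only in the WT library. *Tap1* (0.78 and 1.11) and *Gbp2* (0.66 and 1.80) were so only in the Vsir-/- library. Both sets included *Ciita*, the master regulator of MHC class II, with log2 ratios of 5.58 and 4.74. They also held *Cxcl9*, a chemokine induced by IFN-γ, with 5.20 and 3.57, the former from 44 and 2 UMIs. Of the 5 transducers, 1 was past 2-fold in each library, *Stat2*, with 2.20 and 1.08. Of the 5 brakes, *Socs3* (1.58 and 1.05) and *Ptpn6*, which encodes the phosphatase SHP-1 (2.39 and 3.49), were higher in macrophages. Of the 5 receptors that use the same kinases, *Ifnar2* and *Il10ra* were higher and *Il6st* was lower.

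The transcript of the ligand was compared with *Ifngr2* over the same clusters. In the WT library *Ifng* was highest in proliferating cells (216 CPM), NK cells (188 CPM), and the EM-like CD4+ and CD8+ clusters (175 and 171 CPM), which were also the 4 clusters with the lowest *Ifngr2*. NKT cells came next on both counts, with 156 CPM (72 UMIs, interval 122 to 197). The other 8 clusters had between 0 and 19.8 CPM. In the Vsir-/- library NK and EM-like CD4+ T cells had the most *Ifng* (475 and 444 CPM) and the least *Ifngr2* of the 11 clusters with at least 50 cells. The mixed Vsir-/- proliferating cluster went the other way, with the next highest *Ifng* (58.3 CPM) beside 69.1 CPM of *Ifngr2*. Below the limit of 50 cells, the 28 Vsir-/- EM-like CD8+ T cells had 1295 CPM of *Ifng* (215 UMIs). They held 0 *Ifngr2* UMIs, which allows up to 18.1 CPM at 3 counts.

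Between genotypes, most values of the members differed by less than 2-fold. Ratios were taken as Vsir-/- over WT in the 10 clusters with at least 50 cells in each library, with 0.5 UMIs added to both, for genes that reached 20 UMIs over both libraries of a cluster. Of 60 values, 59 passed this filter, 3 were past 2-fold higher in the Vsir-/- library, 3 were lower, and 53 were neither. The value left out was *Ifngr2* in NK cells, with 8 UMIs in WT and 5 in Vsir-/- cells. The members past 2-fold were read against the share of all genes past 2-fold in either direction in the same cluster.

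In B cells, *Irf1* had 71.8 CPM in the WT and 147 CPM in the Vsir-/- library, or 1.04 (interval 0.64 to 1.41) as a log2 ratio, and *Socs1* had 47 and 3 UMIs, a ratio of −1.03 (interval −3.57 to 0.40) whose interval spans 0. These were 2 of 6 members, where 32.3% of all genes were past 2-fold. The 3 B cell genes together went from 5401 to 2051 CPM in this cluster and the tubule list went from 23.5 to 5966 CPM, and their part in the result was not tested. In EM-like CD4+ T cells, *Ifngr2* had 6.07 CPM (17 UMIs) and 12.7 CPM (20 UMIs), a log2 ratio of 1.06 (interval 0.06 to 2.09), as 1 of 6 members where the background was 15.8%. After the subtraction described above, this ratio was 0.11.

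In proliferating cells, *Ifngr2* had 5.97 CPM (12 UMIs, interval 3.08 to 10.4) in the WT and 69.1 CPM (307 UMIs, interval 61.6 to 77.2) in the Vsir-/- library, a log2 ratio of 3.48 (interval 2.71 to 4.50), and *Ifngr1* had 247 and 103 CPM, a ratio of −1.27 (interval −1.45 to −1.08). In non–EM-like CD4+ T cells, *Jak1* had 379 and 152 CPM, a ratio of −1.31 (interval −1.44 to −1.19). The shares of all genes past 2-fold in either direction were 46.5% and 58.5% in these clusters, and most of these genes were higher. In proliferating cells 4593 were higher and 1102 lower, of 12248 genes. In the non–EM-like CD4+ cluster 6014 were higher and 1341 lower, of 12583. The median log2 ratios over all genes were 0.51 and 0.91. Relative to these medians, the ratios were 2.96 for *Ifngr2* and −1.78 for *Ifngr1* in proliferating cells and −2.23 for *Jak1* in the non–EM-like CD4+ cluster. On this scale 3 values were past 2-fold higher and 8 lower over the 10 clusters. All 8 lower values were in the proliferating and non–EM-like CD4+ clusters, whose medians lay far above 0. The share of all genes past 2-fold on this scale was not computed, so these counts have no background. No member that passed the filter was past 2-fold in non–EM-like CD8+ T cells, M2-like R2, R1, or other R2 macrophages, neutrophils, or NK cells. Of all genes, 20.8%, 15.7%, 22.4%, 16.2%, 20.6%, and 16.9% were past 2-fold in these clusters, in the same order.

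Within the 2-fold limit the members did not all lean the same way. Their median log2 ratio by cluster ran from −0.75 in the non–EM-like CD4+ cluster to 0.19 in B cells, where the medians over all genes lay between −0.06 and 0.07 outside the proliferating and non–EM-like CD4+ clusters. *Jak1* was lower in the Vsir-/- library in 9 of 10 clusters, with a median log2 ratio of −0.41, and the interval lay below 0 in 8 of them. The exception was NK cells, at 0.20 (interval 0.03 to 0.37). *Ifngr1* was also lower in 9 of 10 clusters (median −0.23), but its interval lay below 0 in only 6 and spanned 0 in 4. It was at −0.76 (interval −1.13 to −0.42) in neutrophils and −0.28 (interval −0.42 to −0.14) in M2-like R2 macrophages. The 9 clusters include the mixed non–EM-like CD4+ cluster, where the ratio was 0.00 in cells with a T cell transcript. The subtraction described above took from 8.29% (M2-like R2) to 34.9% (B cells) of Vsir-/- UMIs outside the mixed clusters. It took 38.5% in the proliferating and 83.5% in the non–EM-like CD4+ cluster. Such UMIs are part of the denominator of CPM, and the cause of the lean of *Jak1* and *Ifngr1* was not tested. *Irf1* was above 0 in 8 of 10 clusters (median 0.24), and its interval lay above 0 in 4 of them. These were B cells, EM-like CD4+ T cells at 0.64 (interval 0.40 to 0.89), non–EM-like CD8+ T cells at 0.73 (interval 0.33 to 1.09), and M2-like R2 macrophages at 0.29 (interval 0.04 to 0.53). A list of 11 genes induced by tissue dissociation moved with *Irf1* in part, from 3190.4 to 9878 CPM in EM-like CD4+ T cells, from 1995 to 5509.6 CPM in the non–EM-like CD8+ cluster, from 7164 to 8613 CPM in M2-like R2 macrophages, but from 5115 to 4384 CPM in B cells, and its part was not tested.

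*Jak2* was below 0 in 8 of 10 clusters (median −0.34), with low counts in several, and its interval lay below 0 in 3 and spanned 0 in 7. *Ifngr2* was above 0 in 6 of 10 clusters, NK cells with their 8 and 5 UMIs included, and lowest in neutrophils, at −0.94 (interval −1.45 to −0.49). *Socs1* was above 0 in 3 of 10 clusters and furthest from 0 on that side in non–EM-like CD8+ T cells, at 0.90 (interval 0.37 to 1.36). In neutrophils all 6 members were at or below −0.05. Their median there was −0.54, and the median over all genes of that cluster was −0.06. The cause of this difference was not tested. In the macrophage clusters *Ifngr2* was at −0.39 (interval −0.63 to −0.16) in M2-like R2, 0.13 (interval −0.22 to 0.51) in R1, and 0.10 (interval −0.30 to 0.49) in other R2 cells.

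**Figure D4:**
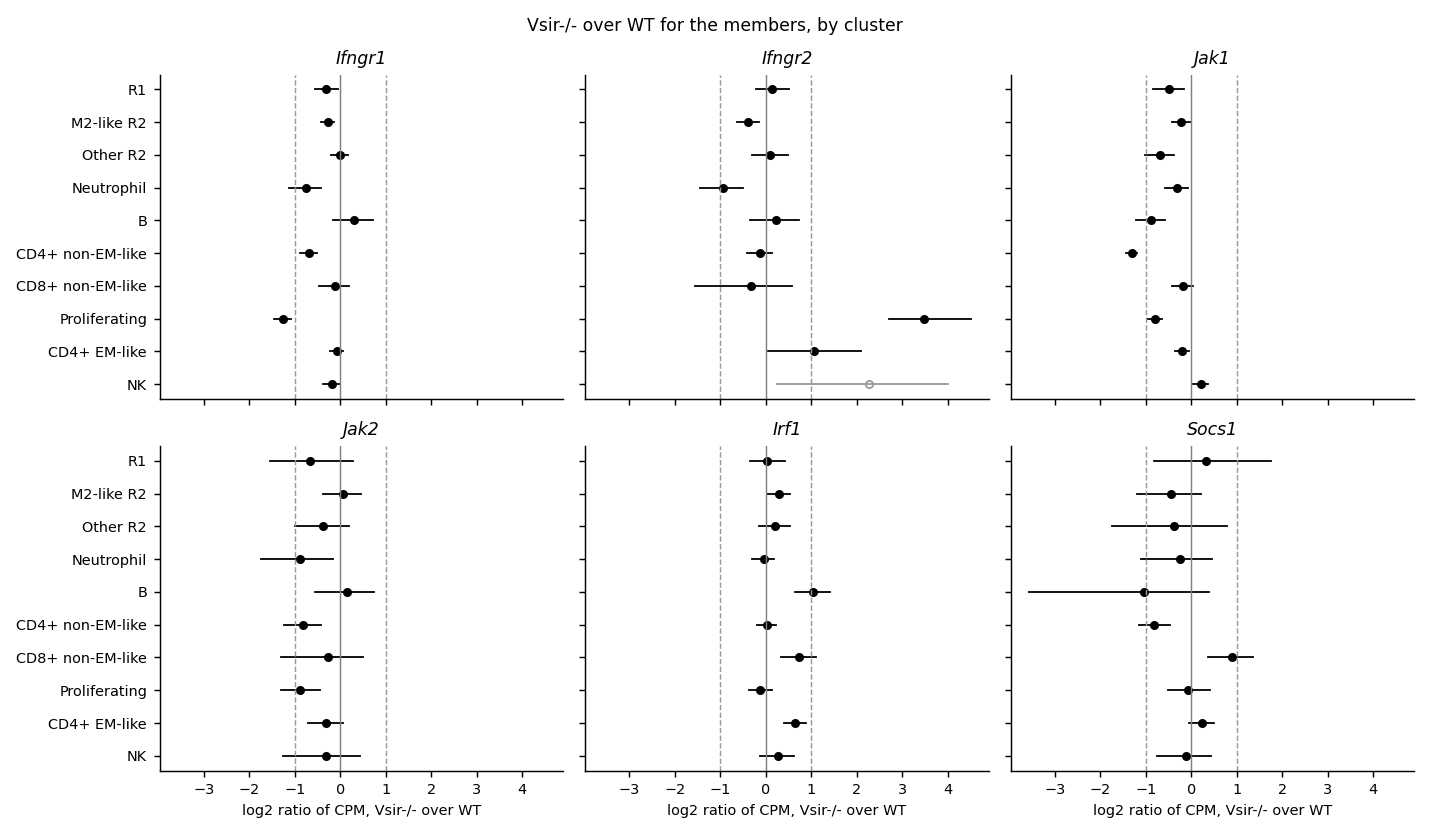
Log2 ratio of CPM, Vsir-/- over WT (x axis), of each member in the 10 clusters with at least 50 cells in each library. Points are ratios, bars are exact conditional intervals at the 95% level, dashed lines mark 2-fold, and the open grey point is the value with fewer than 20 UMIs. *Ifngr2* in proliferating cells, at 3.48, lies farthest from 0, and most other points lie between the dashed lines.

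The non–EM-like CD4+ and proliferating clusters of the Vsir-/- library hold different mixtures of cells than those of the WT library. A UMI of any of 6 T cell receptor or CD3 genes was found in 895 of 895 WT but 116 of 349 Vsir-/- cells called non–EM-like CD4+, and in 114 of 118 WT and 66 of 189 Vsir-/- proliferating cells. Of the 233 Vsir-/- cells without one in the CD4+ cluster, 15 had a *Ptprc* UMI, and tubule genes stood at 17059.8 CPM. These cells had 61.9 CPM of *Ifngr1*, 40.3 CPM of *Ifngr2*, 118 CPM of *Jak1*, and 55.3 CPM of *Irf1*, so transcripts of both chains were also measured in cells that largely lacked CD45 transcripts.

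With the comparison limited to cells with such a transcript, the log2 ratio of *Jak1* in the CD4+ cluster was −0.61 (interval −0.79 to −0.43) in place of −1.31, and that of *Ifngr1* was 0.00 (interval −0.26 to 0.26) in place of −0.70. The ratio of *Irf1* became 0.96 (interval 0.70 to 1.21) in place of 0.02, from 81.5 to 158 CPM. In the same cells the tubule list went from 96.1 to 6509.8 CPM, the dissociation list from 3034 to 5487 CPM, and *Ptprc* from 948 to 319.9 CPM, and their part in this ratio was not tested. Among proliferating cells with a T cell transcript, *Ifngr2* still had 6.07 CPM (12 UMIs in 114 cells) in the WT and 53.4 CPM (77 UMIs in 66 cells) in the Vsir-/- library, a log2 ratio of 3.09 (interval 2.25 to 4.15). In these cells *Ptprc* had 1020.4 and 413 CPM, the endothelial genes *Pecam1*, *Kdr*, and *Emcn* together 30.3 and 2075 CPM, and the tubule list 106 and 1979 CPM. The part of RNA from other cells in the *Ifngr2* ratio was not tested. *Ifngr2* stood at 76.6 CPM in the remaining 123 Vsir-/- proliferating cells.

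Among the other 28 pathway genes, the counts past 2-fold between genotypes also differed by cluster. In M2-like R2 macrophages, 3 were higher and 1 was lower of 28 that passed the filter, where 15.7% of all genes were past 2-fold in either direction. *Cxcl9* had 2.96 and 112 CPM from 13 and 188 UMIs, a log2 ratio of 5.19 (interval 4.44 to 6.18). *Gbp2*, a guanylate-binding GTPase of cell-autonomous defense, had 94.9 and 237 CPM, a ratio of 1.32 (interval 1.12 to 1.52), and *Ciita* had 42.8 and 101 CPM, a ratio of 1.24 (interval 0.93 to 1.54). The R1 marker list stood at 212 and 1487 CPM in this cluster, and its part was not tested. In R1 macrophages, where 1204 of 8862 genes were higher and 778 lower (22.4% together), 2 of 27 on the list were higher and 0 lower. They were *Cxcl10* at 2.38 (interval 1.64 to 3.32) and *Socs3* at 1.20 (interval 0.70 to 1.77). In other R2 macrophages, where 507 of 7555 genes were higher and 719 lower (16.2% together), 4 of 26 on the list were higher. They were *Cxcl10*, *Socs3*, *Gbp2*, and *Cd274*, which encodes PD-L1, and *Ciita* was lower at −1.26 (interval −2.18 to −0.49). *Ciita* thus had opposite signs in the 2 groups of R2 cells. The 3 B cell genes summed to 1125 CPM in WT and 7.76 CPM in Vsir-/- other R2 macrophages. Their part in the *Ciita* ratio was not tested. In neutrophils, 6 of 27 were lower and 0 higher, among them *Gbp2* (316 and 121 CPM) and *Socs3* (237 and 102 CPM). Of all 7197 genes of this cluster, 766 were lower and 719 higher, or 20.6% together.

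In lymphocytes, *Ifng* was the only one of 26 past 2-fold in EM-like CD4+ T cells, with 175 and 444 CPM. NK cells had 2 higher, *Ifng* and *Cxcl10*, and 1 lower, *Nlrc5*, the regulator of MHC class I, of 27. Non–EM-like CD8+ T cells had 2 higher and 2 lower of 26, and B cells 6 higher of 26, among them *Gbp2* at 2.26 (interval 1.50 to 2.99). Of all 9094 genes in B cells, 1486 were higher and 1450 lower. In the mixed non–EM-like CD4+ and proliferating clusters, 9 and 7 were higher and 4 and 5 lower, of 27 and 28. The median log2 ratio of the list lay between −0.44 in neutrophils and 0.38 in B cells, and the background shares are those given for the members.

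For each member, the 3 genes with the most similar pattern over clusters were found by Pearson's r of log2(CPM + 1), taking the lower of the r over the 13 WT and the 11 Vsir-/- clusters, among genes with at least 200 UMIs in each library. For *Ifngr1* these were *Bin2*, *Elf4*, and *Spn* (r between 0.84 and 0.87), for *Ifngr2* *Sgk3*, *Ttyh3*, and *Oasl2* (between 0.85 and 0.92), and for *Jak1* *Vps37b*, *Gm19585*, and *Zdhhc18* (between 0.86 and 0.89). For *Jak2* they were *Nfkb1*, *Pygo2*, and *Slc38a1* (between 0.65 and 0.77), for *Irf1* *Pglyrp1*, *Mxd1*, and *Srgn* (between 0.71 and 0.78), and for *Socs1* *Tox*, *Hcst*, and *Rinl* (all 0.86). No member was among the 3 of another. *Ifngr1* and *Ifngr2* had r of −0.39 and −0.25 with each other, and *Jak1* and *Socs1* 0.66 and 0.76. The points share their library, depth, and the mixed clusters, and the values are descriptions.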

How the data were processed

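Single-cell suspensions were made into 3′ libraries with droplet barcodes, and the deposited tables hold UMI counts per gene and cell, which the authors did not normalize, with a cluster name and a deposited mitochondrial percent for each cell. The submitters' processing notes name Cell Ranger 3.1.0, R 4.0.3, Seurat 3.2.3, and genome build mm9. Cells with up to 10% mitochondrial UMIs were kept by the authors. How doublets were treated is not given in the sources used here, and no caller was run. Of the columns, 0 belonged to samples of other series.

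Cells were assigned to the 1 WT and the 1 Vsir-/- library by the sample labels. The 6 members, the 28 other pathway genes, and the marker lists were chosen with earlier results of these data known, and 2 further genes of these lists are not reported here. UMIs were summed by cluster and library and divided by all UMIs of the same cells (CPM). The text names the members, pathway genes, marker lists, and the 3 genes most like each member. With 1 library per genotype and cells that are not replicates, no test was run and p-values were not computed. Intervals at the 95% level are exact Poisson for levels, Clopper-Pearson for shares, and conditional binomial for ratios, and molecules of 1 cell are not independent of its state. Neighbouring levels were called separated where the interval of their ratio left out 1. A level of 0 was given the limit that 3 counts set. Ratios between genotypes had 0.5 UMIs added to each library and were counted past 2-fold, for genes with at least 20 UMIs in a cluster of at least 50 cells per library. Thinning drew 1000 UMIs per cell without replacement (seed 1). The deposited mitochondrial percent served only to limit cells to 5% in 1 alternative.

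Other alternatives changed the filter, centring, weighting, denominator, and cells kept. The fold and interval calculations were tested on simulated Poisson counts with known folds. These counts held no variation between cells or libraries, so they check the calculations and not how well the intervals describe these data. Python 3.11.15, numpy 2.4.6, scipy 1.17.1, pandas 2.3.3, and matplotlib 3.10.9 were used. Promoters were taken from RefSeq on GRCm38.p6, and no coordinates of the mm9 alignment were used.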

Additional observations from a re-analysis of the deposited data

How the results depend on the processing

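No paired analysis was possible because each genotype had 1 library and no test was run. *Ifngr2* stayed higher in macrophages than in T cells under every alternative run. Its log2 ratio was 2.55 (cells thinned to 1000 UMIs) and 1.91 (denominator without mitochondrial, ribosomal protein, and tubule genes) in the WT library, and 2.26 (mean over cells) and 2.37 (profile of cells without T cell transcripts subtracted) in the Vsir-/- library. The *Ifngr1* ratio was less stable. It was 0.26 with the other denominator in the WT library. In the Vsir-/- library it was 0.41 with at most 5% mitochondrial UMIs, 0.21 thinned, 0.17 as a mean over cells, 0.16 with cells kept by T cell transcript, and −0.056 with the profile subtracted. Cells with both chains made up 0.981% of WT and 1.19% of Vsir-/- cells at 1000 UMIs, 3.44% and 4.04% at 2000 UMIs, and 30.0% of Vsir-/- cells with at most 5% mitochondrial UMIs.

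Of the members past 2-fold between genotypes, 3 were higher and 3 lower as reported. The share of all genes past 2-fold was not computed under the alternatives that follow, so their counts have no background. Centring on the median of all genes gave 8 lower, all of them in the 2 mixed clusters. The other denominator gave 8 lower, thinning 1 higher and 5 lower, and subtraction 5 higher and 1 lower. Limiting the 2 mixed clusters to cells with T cell transcripts gave 1 lower. The last of these, and all alternatives for *Ifngr2* between T and NK clusters, were chosen after seeing the data. Among those, EM-like over non–EM-like CD4+ T cells of the Vsir-/- library was −3.45 after subtraction, and NK over non–EM-like CD8+ T cells of that library was 1.16 after thinning, with few UMIs. The cause of these shifts was not tested. In all, 58 of the recomputed main values moved by less than their counting error, or by less than 1.5 times for counts, and 24 by more. Among the recomputed values of single genes in single clusters these numbers were 393 and 104.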
